A study of Mus musculus with 10 samples.

Results

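Cholesterol synthesis and its sterol control were followed in mouse cells and embryos through 8 named genes, Hmgcs1, Pmvk, Mvd, Idi1, Fdft1, Sqle, Cyp51 and Insig1. They were taken by gene symbol from a table of 46955 gene rows. Of the 8 genes, 7 are described here and Mvd was not analysed here. All 7 passed the abundance filter of each test, an FPKM of at least 1 in at least 2 libraries (FPKM counts fragments per length of transcript and per size of the library, so it is a level per length).

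Cells make cholesterol from acetyl-CoA through mevalonate, isoprenoid units, squalene and lanosterol. When membrane cholesterol is low, the SREBP transcription factors are carried by SCAP from the endoplasmic reticulum to the Golgi, are cleaved there and switch on most genes of the route. INSIG1 holds SCAP back when sterols are plentiful and is itself a SREBP target. In the embryo, cholesterol is also needed to process and sense Hedgehog proteins, and inherited blocks of the last synthesis steps disturb development.

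The RNA sequencing compared wild-type (WT) and Strap knockout (KO) material of strain C57BL/6 in 10 libraries. STRAP is a WD40-repeat protein that associates with the splicing machinery, and its gene was disrupted with zinc finger nucleases. One WT and 1 Strap KO library came from embryonic stem cells (ESCs), derived from blastocysts and grown on mouse fibroblast feeders with serum and LIF. WT and Strap KO embryoid bodies (EBs) of day 9, with 2 libraries each, were made from such cells without LIF. They were then moved to serum-free N2B27 medium with bFGF, and whether bFGF was still present at day 9 is not stated. Pooled whole WT embryos of E8.0 and E9.0 gave 2 libraries per stage. All embryos were WT, and the labels name no drug in any group. The ESC pair had no replicates.

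Strap itself stood at 68.7 FPKM in WT ESCs and 14.5 in KO ESCs, at 49.7 and 47.2 in the WT EBs, at 8.48 and 11.3 in the KO EBs and between 82.7 and 98.5 in the embryos, so every KO library lay below every WT one. Read totals were not analysed here and the depth behind each value is unknown. The libraries were alike in breadth, with 12881 to 13886 rows at an FPKM of at least 1. Replicate EB libraries differed by a median of 0.252 (WT) and 0.271 (KO) on the log2 scale, against 0.10 and 0.11 for E8.0 and E9.0. All 7 pluripotency markers were detected in the ESCs, all 7 cardiac markers in the embryos, and neural progenitor markers in the EBs (7 of 7 in WT, 6 of 7 in KO at an FPKM of at least 1 in both libraries). The summed FPKM of the neural progenitor markers was no higher in the WT EBs (80.2 to 84.1) than in the ESCs (88.7 in WT, 87.0 in KO). In the KO EBs it was 89.9 to 111. Both EB groups kept pluripotency markers, and the ESC libraries carried fibroblast markers (summed FPKM 304 and 302). In whole cultures and embryos, fewer cells of a type and less RNA per cell cannot be told apart.

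Hmgcs1 joins acetyl-CoA with acetoacetyl-CoA into HMG-CoA, an early step of the route, and lies at chr13:119690379-119708260 (GRCm38, plus strand). Pmvk phosphorylates phosphomevalonate (chr3:89454541-89469013, plus). Idi1 isomerises isopentenyl diphosphate (chr13:8885501-8892451, plus). Fdft1, squalene synthase (chr14:63145150-63179578, minus), takes the first step committed to sterols, and Sqle, squalene epoxidase (chr15:59315077-59331192, plus), the next oxidation. Cyp51 removes a methyl group from lanosterol (chr5:4081145-4104746, minus), and Insig1 is at chr5:28071363-28078662 (plus). Fdft1 overlaps Ctsb and Cyp51 overlaps Akap9, each on the opposite strand, and the transcripts were assembled with strand.

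Promoter sequences were available for 5 of the 7 genes (RefSeq, GRCm38.p6) and were read over the 250 bases before the start RefSeq gives. That start can differ from the GENCODE start used for the gene positions above, and the stretches of Insig1, Idi1 and Cyp51 reach into the GENCODE gene. Those of Hmgcs1, Insig1 and Pmvk are shown because Insig1 and Pmvk passed the test in the Strap KO EBs and Hmgcs1 did not. Capitals mark the sterol element TCACNCCAC, the NF-Y box CCAAT and the GC box GGGCGG, each searched on both strands, and the match ATTGG or CCGCCC is the reverse strand of the latter pair. No motif overlapped another.
Hmgcs1: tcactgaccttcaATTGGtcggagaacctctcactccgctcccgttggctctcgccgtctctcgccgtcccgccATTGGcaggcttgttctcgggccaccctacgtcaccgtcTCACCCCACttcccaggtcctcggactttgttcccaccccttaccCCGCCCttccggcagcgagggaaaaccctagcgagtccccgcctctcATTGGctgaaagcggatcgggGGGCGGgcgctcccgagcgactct
Insig1: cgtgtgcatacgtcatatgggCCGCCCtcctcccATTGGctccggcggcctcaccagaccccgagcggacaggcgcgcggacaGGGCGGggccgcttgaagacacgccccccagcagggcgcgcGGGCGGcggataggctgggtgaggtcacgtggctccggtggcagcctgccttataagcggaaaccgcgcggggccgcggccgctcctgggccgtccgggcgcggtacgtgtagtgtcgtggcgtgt
Pmvk: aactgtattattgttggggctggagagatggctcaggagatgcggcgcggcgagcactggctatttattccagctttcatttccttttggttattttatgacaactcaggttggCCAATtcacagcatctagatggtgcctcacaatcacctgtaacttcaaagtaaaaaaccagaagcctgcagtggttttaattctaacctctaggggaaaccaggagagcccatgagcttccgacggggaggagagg
The 3 stretches are chr13:119690101-119690350, chr5:28071162-28071411 and chr3:89454291-89454540, all on the plus strand. Pmvk had a second annotated start, whose stretch (chr3:89459321-89459570) lies wholly within the GENCODE gene and held none of these motifs. The sterol element was matched only in Hmgcs1, at -137 to -129 from the start, as TCACCCCAC, and 1.05% of 32851 such mouse stretches hold it. The E-box form TCACGTGA, present in 0.785%, was matched in none of the 5 genes. CCAAT was matched in all 5, against 33.8% of all stretches, and GGGCGG in all but Pmvk, against 32.7%. A match is a run of letters and not a shown binding site, and its absence speaks for these letters in this stretch only.

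**Figure D1:**
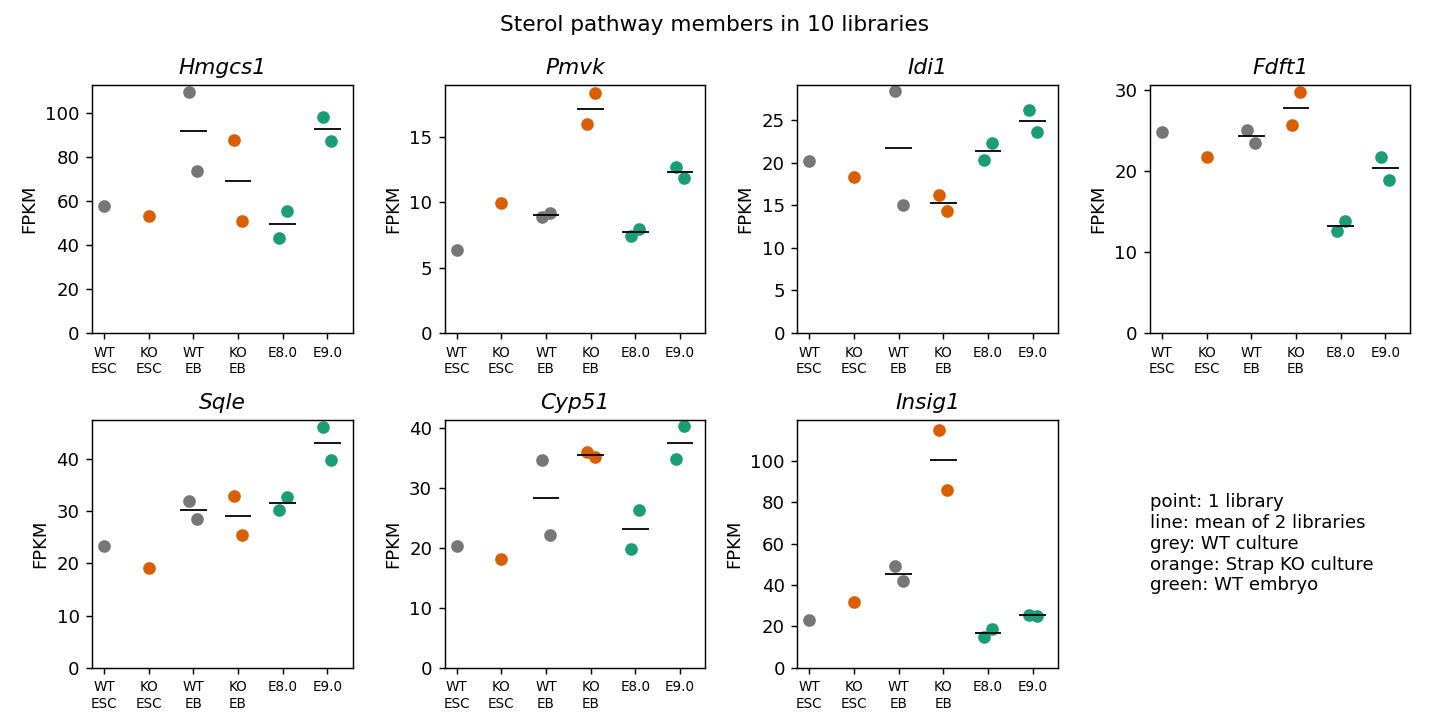
FPKM of the 7 genes (y axis, linear, from 0) in each library (points) by group (x axis), with the mean of 2 libraries as a line. Insig1 stands highest in the Strap KO EBs (115 and 86.2 FPKM), and all 7 genes are higher in both E9.0 libraries than in both E8.0 libraries.

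Over the 10 libraries the genes differed in how far they moved. The highest library was 7.61-fold above the lowest for Insig1, 2.88-fold for Pmvk, 2.53-fold for Hmgcs1, 2.42-fold for Sqle, 2.36-fold for Fdft1, 2.21-fold for Cyp51 and 1.99-fold for Idi1. Insig1, the sterol sensor's partner, thus had the widest range and Idi1 the narrowest. The lowest group was E8.0 for Hmgcs1, Fdft1 and Insig1, the WT ESCs for Pmvk, the KO ESCs for Sqle and Cyp51 and the KO EBs for Idi1. The highest was E9.0 for Hmgcs1, Sqle, Idi1 and Cyp51, and the KO EBs for Pmvk, Fdft1 and Insig1. For Idi1 no neighbouring groups differed by more than the pooled standard deviation between replicates (0.32 log2), and for Hmgcs1 only the KO and WT EBs did (gap 0.42 against 0.37). For Insig1 all neighbours did except the WT ESCs and E9.0, and for Pmvk all did. For Sqle the KO EBs, WT EBs and E8.0 were within that spread of one another in turn, for Fdft1 E9.0 and the KO ESCs, and the WT EBs and WT ESCs, and for Cyp51 all neighbours except the WT and KO EBs.

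In the Strap KO EBs, Insig1 and Pmvk rose against WT, and none of the other 5 genes passed the test in either direction. The genes were not tested against one another. Insig1 measured 49.2 and 41.8 FPKM in the WT EBs and 115 and 86.2 in the KO EBs. The groups did not overlap and both KO libraries exceeded every other library of the series. The log2 change was 1.12 (SE 0.17, 95% interval 0.71 to 1.53, limma over all rows, adjusted p = 0.0319). Pmvk measured 8.91 and 9.18 FPKM in WT and 16.0 and 18.4 in KO EBs, again without overlap. Its log2 change was 0.85 (SE 0.12, 95% interval 0.56 to 1.15, limma adjusted p = 0.0302). Thus 2 of 7 genes were called higher, where 2.15% of the 15160 rows tested were called higher and 1.68% lower (326 and 255 rows, or 246 and 294 after median scaling). The median log2 change was 0.18 over the 7 genes and 0.01 over all rows.

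Both calls depended on how the spread was estimated. In 1 alternative, EB and embryo libraries were weighted by their separate mean residual variances, each taken over all rows and the same for every gene. With these separate variances the limma adjusted p was 0.134 for each of Insig1 and Pmvk (called higher: 0.0594% of rows). A fit of the 4 EB libraries alone gave 0.357 for each (0.0132% of rows). Without the first WT EB library the adjusted p was 0.0947 for Insig1 and 0.0979 for Pmvk, and without the second KO EB library it was 0.0571 for Pmvk. With a library left out, the log2 change was 0.91 to 1.33 for Insig1 and 0.76 to 0.95 for Pmvk. The other fits named here compare the same group means, so the size could not differ in them.

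All of the 7 genes but Pmvk were higher in the first WT EB library than in the second. Among them were Hmgcs1, an early enzyme, and Idi1, the isomerase. Hmgcs1 measured 110 and 73.9 FPKM in WT and 87.9 and 51.0 in KO EBs, and Idi1 28.4 and 15.0 in WT and 16.2 and 14.3 in KO EBs. The groups overlapped for both genes, and the log2 changes were -0.42 for each (95% intervals -1.12 to 0.28 and -1.05 to 0.21, limma adjusted p = 0.402 and 0.360). The WT pair lay 1.89-fold apart for Idi1, and without the second WT EB library Idi1 passed the test as lower (-0.86, limma adjusted p = 0.0329). Sqle overlapped as well, at 32.0 and 28.6 FPKM against 32.9 and 25.4. Fdft1 (25.0 and 23.4 in WT, 25.7 and 29.7 in KO) and Cyp51 (34.7 and 22.2 in WT, 36.0 and 35.2 in KO) were higher in both KO libraries but did not pass. Their log2 changes were 0.18 (95% interval -0.12 to 0.48) and 0.35 (-0.18 to 0.88). With a library left out, the change ran from -0.81 to -0.034 for Hmgcs1 and from 0.039 to 0.66 for Cyp51. With Insig1 and Pmvk this made 4 of 7 genes whose KO libraries all lay above the WT libraries, and 25.8% of all rows did so.

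**Figure D2:**
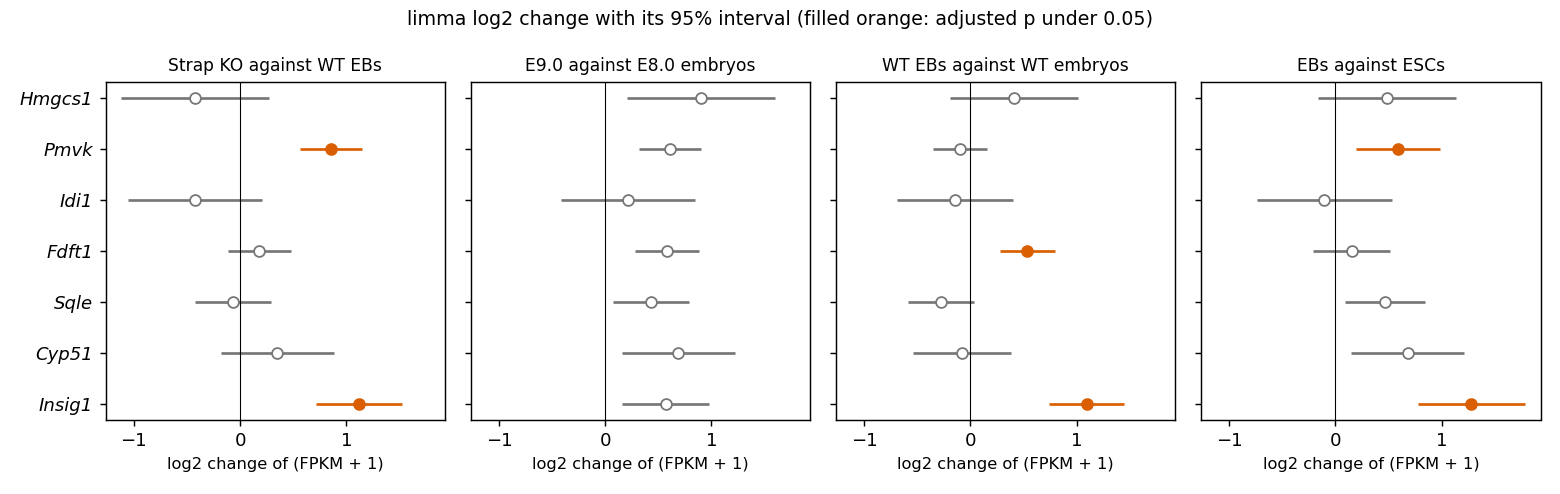
limma log2 change of FPKM + 1 (x axis) for each gene (y axis) in 4 comparisons, with its 95% interval. Filled orange points had an adjusted p under 0.05: Insig1 and Pmvk in the KO against WT EBs (1.12 and 0.85) and in the EBs against ESCs, Fdft1 and Insig1 in the WT EBs against embryos, and none in E9.0 against E8.0.

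Within a library the ratio of 2 genes' FPKM carries no difference in library scaling. Insig1 over Hmgcs1 was 0.448 and 0.566 in the WT EBs and 1.31 and 1.69 in the KO EBs. It lay between 0.261 and 0.600 in the 8 other libraries, so Insig1 exceeded Hmgcs1 in the KO EBs alone. Insig1 over Insig2, its paralogue, was 3.44 and 3.16 in WT and 7.61 and 5.76 in KO EBs. Pmvk over Idi1 was 0.314 and 0.610 in WT and 0.985 and 1.29 in KO EBs. None of these ratios overlapped between the EB groups. Each set Insig1 or Pmvk, which had passed in these libraries, over a gene that had not. The ratios are thus no separate support for those calls.

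**Figure D3:**
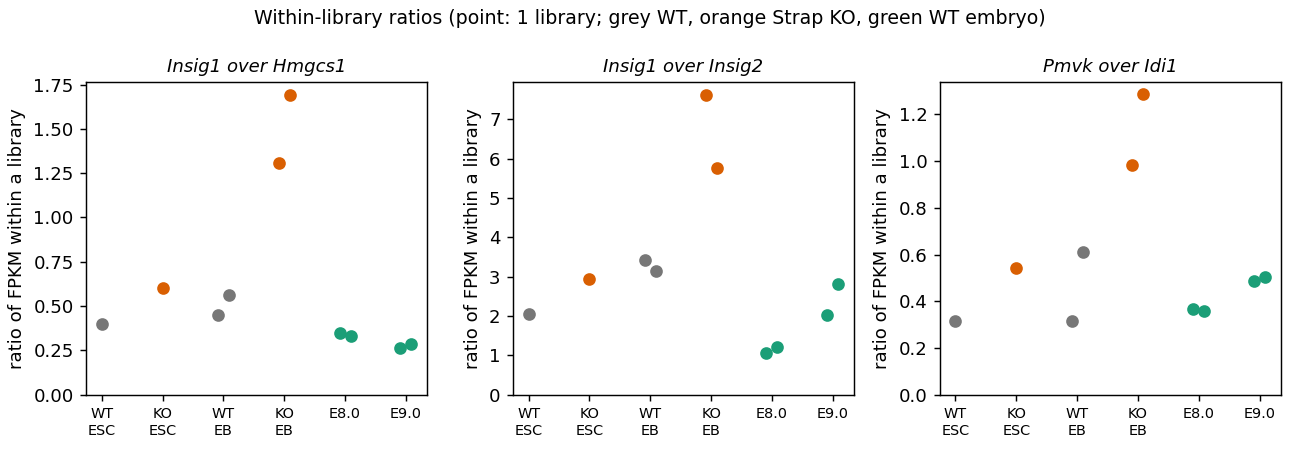
Ratio of the FPKM of 2 genes within each library (y axis, linear, from 0) by group (x axis), with 1 point per library. Insig1 over Hmgcs1 reaches 1.31 and 1.69 in the Strap KO EBs and stays at or below 0.600 in the other libraries.

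In the rest of the route, no gene passed in the KO EBs. Of 14 other synthesis genes, 0 rose and 0 fell by limma, near the 2.15% and 1.68% over all rows, 2 had an unadjusted p under 0.05, and their median log2 change was 0.14. Of the 10 genes of the SREBP machinery only Insig1 passed, and 5 had an unadjusted p under 0.05. In the same comparison, 3941 of the 15160 rows lay below this cut, so many genes outside the route did too. Srebf2, the SREBP that mainly drives cholesterol synthesis, had 43.7 and 50.1 FPKM in WT and 61.8 and 69.5 in KO EBs (log2 change 0.48, limma adjusted p = 0.0597). Scap had 11.7 and 8.72 against 15.2 and 17.9 (0.65, adjusted p = 0.0766 by limma), and the row of Srebf1, which is merged with Mir6922, had a change of 0.51 (limma adjusted p = 0.0905). None of these 3 overlapped, and none passed. Rnf145 of the same list lay the other way without overlap, at 48.0 and 38.0 FPKM in WT and 32.7 and 30.8 in KO EBs. Its log2 change was -0.42 (limma adjusted p = 0.114). Of the 10 genes of the machinery 6 had a positive change, as did 7825 of the 15160 rows. Insig2 was at 14.3 and 13.2 in WT and 15.1 and 15.0 in KO EBs.

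Elsewhere in the lists of cholesterol, isoprenoid and fatty acid genes 3 passed and 61 did not. Over all rows, 2.15% were called higher and 1.68% lower. Of 12 fatty acid synthesis genes 0 passed by limma, and 2 had an unadjusted p under 0.05, as did 3941 of the 15160 rows. Nceh1, a neutral cholesterol ester hydrolase, rose from 6.02 and 6.22 to 12.6 and 12.3 FPKM (log2 change 0.92, limma adjusted p = 0.0407). Lipa, the lysosomal acid lipase, fell from 9.42 and 10.9 to 5.55 and 5.32 (-0.79, limma adjusted p = 0.0386). Rabggta, a subunit of the enzyme that prenylates Rab proteins, rose by 0.62 (limma adjusted p = 0.0453). Over the alternative fits the limma adjusted p reached 0.357 for Nceh1 and 0.371 for Lipa and Rabggta. The KO EBs differed in cell markers too. Of 7 cardiac markers 5 fell, with a summed FPKM of 71.2 to 192 in WT and 8.71 to 13.5 in KO EBs and none at 0 in both libraries of either group. Of 7 pluripotency markers 1 rose, and their sum was 418 to 1019 in WT and 1386 to 1757 in KO EBs. Of 8 fibroblast markers 1 fell (59.3 to 242 against 26.2 to 31.7). Mitochondrially encoded transcripts took 5.70% and 6.62% of FPKM in WT and 3.41% and 3.52% in KO EBs. The part of these differences in the values of Insig1 and Pmvk was not tested.

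In the unreplicated ESC pair Insig1 was 23.1 FPKM in WT and 31.9 in KO, a ratio of 1.38, and Pmvk 6.39 and 9.93, a ratio of 1.56. The other 5 genes had ratios of 0.818 (Sqle) to 0.920 (Hmgcs1). Thus 2 of 7 genes were higher and 5 lower in the KO library, against 49.5% and 50.5% of the rows that reached 5 FPKM in the WT or the KO library. Outside the 7, the Srebf1 row had a ratio of 1.86, Srebf2 1.30 and Insig2 0.969. With 1 library per genotype none of these ratios could be tested.

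From E8.0 to E9.0 the whole set stood higher. All 7 genes were above both E8.0 libraries in both E9.0 libraries, where 33.2% of all rows were, and the median log2 change was 0.58 against 0 over all rows. None passed the test in the model of all 8 EB and embryo libraries (1.2% of rows were called higher and 1.12% lower), although 6 of 7 had an unadjusted p under 0.05, as did 9.76% of rows in this direction. With EB and embryo libraries weighted by their separate variances, as above, 6 of the 7 rose, all but Idi1. Their adjusted p-values by limma were 0.00321 (Pmvk) to 0.0193 (Sqle), and 12.4% of all rows were called higher. With the 4 embryo libraries alone 4 rose (Hmgcs1, Pmvk, Fdft1 and Insig1), where 10.4% of rows did.

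Hmgcs1 had the widest step, from 43.4 and 55.8 FPKM at E8.0 to 98.3 and 87.2 at E9.0. The log2 change was 0.90 (SE 0.29, 95% interval 0.20 to 1.60), with a limma adjusted p of 0.168 over the 8 libraries and 0.00987 with separate variances. Among the enzymes of the middle of the route, Pmvk went from 7.42 and 7.98 to 12.7 and 11.9 FPKM (0.61, SE 0.12), with limma adjusted p-values of 0.0582 and 0.00321 in these fits. Fdft1 went from 12.6 and 13.8 to 21.8 and 18.9 FPKM (0.58, SE 0.13, limma adjusted p = 0.0707 and 0.00548). Squalene epoxidase was already well expressed at E8.0, and Sqle went from 30.3 and 32.8 to 46.2 and 39.9 FPKM (0.43, SE 0.15, limma adjusted p = 0.191 and 0.0193). Cyp51 went from 19.9 and 26.3 to 34.9 and 40.4 FPKM (0.69, SE 0.22, limma adjusted p = 0.168 and 0.0174). Insig1, the brake, moved in the same direction as the enzymes, from 15.1 and 18.6 to 25.7 and 25.1 FPKM (0.57, SE 0.17, limma adjusted p = 0.141 and 0.0116). Idi1 differed least, at 20.3 and 22.3 against 26.2 and 23.6 FPKM (0.22, 95% interval -0.42 to 0.85, limma adjusted p = 0.750 and 0.295).

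**Figure D4:**
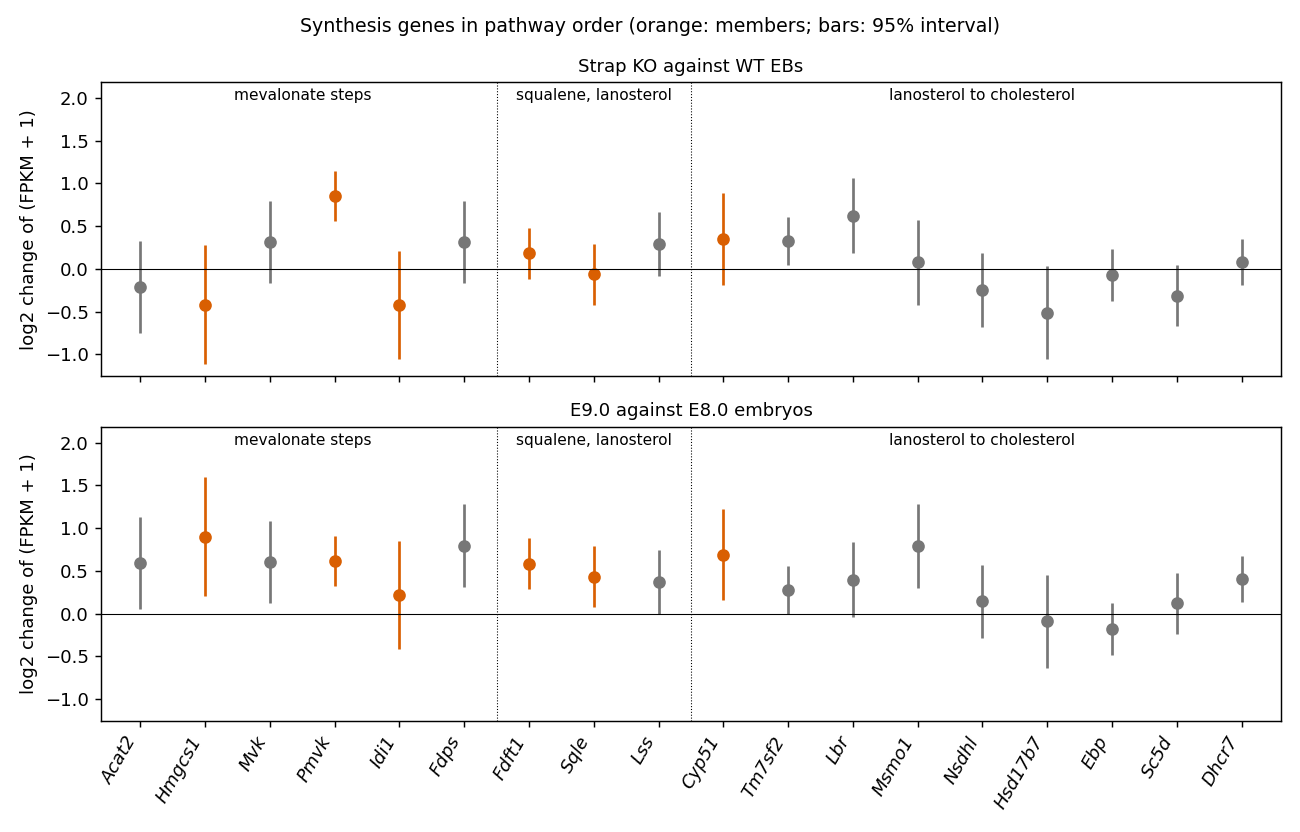
limma log2 change of FPKM + 1 (y axis) with its 95% interval for synthesis genes in the order of the route (x axis), for Strap KO against WT EBs and E9.0 against E8.0 embryos. In the embryos all the orange points lie above 0 (0.22 to 0.90), while in the EBs the interval of Pmvk (0.56 to 1.15) lies farthest above 0. Insig1 is not an enzyme and is not drawn.

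The other synthesis genes leaned the same way between the embryo stages. Of 14, 12 had a positive change, as did 7498 of the 15160 rows, and the median of the 14 was 0.39. Of the 14, 11 did not overlap and were higher, where 33.2% of all rows were. None passed over the 8 libraries and 5 had an unadjusted p under 0.05, as did 2832 of all rows. With separate variances 8 of 14 rose, where 12.4% of all rows did. Fdps, farnesyl diphosphate synthase, whose row is merged with Gm43738 and Rusc1, went from 47.5 and 59.9 to 92.8 and 93.7 FPKM, and Msmo1, a sterol demethylase, from 19.1 and 30.2 to 42.6 and 41.9. Among the regulators Srebf2 had 38.1 and 39.3 against 56.3 and 55.0 (0.51, limma adjusted p = 0.0636), and the Srebf1 row a change of 0.53 (limma adjusted p = 0.109). Insig2 lay the other way from Insig1, at 14.3 and 15.2 against 12.7 and 8.88 FPKM (-0.43, limma adjusted p = 0.231). Insig1 over Insig2 within a library was 1.06 and 1.22 at E8.0 and 2.02 and 2.82 at E9.0. Scap had a change of -0.16. Outside the 7 genes only Apoe, the apolipoprotein of efflux, passed in the lists while 63 genes did not. Apoe fell (118 and 152 to 16.7 and 16.7 FPKM), where 1.12% of all rows were called lower.

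The embryo stages also differed in the tissues they held. Of 8 visceral endoderm and yolk sac markers 7 fell, with a summed FPKM of 552 to 900 at E8.0 and 20.2 to 45.3 at E9.0. Of 7 erythroid markers 3 rose (914 to 2130 against 7595 to 11577), of 8 fibroblast markers 2 rose (85.8 to 125 against 607 to 644), and of 7 neural progenitor markers 1 rose (92.3 to 96.0 against 186 to 194). Mitochondrially encoded transcripts took 0.598% and 0.472% of FPKM at E8.0 and 2.38% and 0.262% at E9.0, where the first library stood apart. No marker of these 4 lists was at 0 in both libraries of a stage. Of 5 decidual markers tested 1 fell, and Prl8a2 and Prl3c1 were at 0 in both E9.0 libraries. The part of these values in those of the 7 genes was not tested.

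In WT EBs, Insig1 and Fdft1 rose against the mean of both embryo stages, 2 of 7 genes where 28.1% of rows were called higher and 23.9% lower. Insig1 was at 49.2 and 41.8 FPKM in the EBs and at 15.1 to 25.7 in the embryos (log2 change 1.10, SE 0.15, limma adjusted p = 0.00164). Fdft1 was at 25.0 and 23.4 FPKM against 12.6 to 21.8 (0.54, SE 0.11, limma adjusted p = 0.00713). These were the genes whose EB libraries lay above all 4 embryo libraries, and 34.4% of all rows did so. Hmgcs1 (0.41), Sqle (-0.28), Idi1 (-0.15), Pmvk (-0.10) and Cyp51 (-0.08) did not pass. Of the 14 other synthesis genes 3 rose and 2 fell, where 28.1% of all rows were called higher and 23.9% lower. Those that rose were Msmo1 (0.88), Lss (0.42), which closes squalene epoxide into lanosterol, and Sc5d (0.43). Mvk (-0.71), mevalonate kinase, was among those that fell. Lss kept its call in 8 of 16 alternatives and Sc5d in 9 of 16. Scap fell by 1.03. Of 12 fatty acid synthesis genes, which answer mainly to SREBP1, 4 rose and 6 fell. All 7 pluripotency markers rose, and all 7 erythroid and 6 of 7 cardiac markers fell, in the EBs (summed FPKM 418 to 1019, 0.343 to 4.05 and 71.2 to 192, against 2.07 to 12.6, 914 to 11577 and 496 to 607). Of 7 neural progenitor markers 1 rose and 3 fell. The mitochondrial share was 5.70% and 6.62% in the EBs and 0.262% to 2.38% in the embryos. The part of these values in those of Insig1 and Fdft1 was not tested.

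Against the ESCs, with genotype as a term, Insig1 and Pmvk rose in the EBs, 2 of 7 genes where 13% of 15090 rows were called higher and 14.8% lower. Insig1 was at 23.1 and 31.9 FPKM in the ESCs and at 41.8 to 115 in the EBs (log2 change 1.28, SE 0.21, limma adjusted p = 0.00982, and 0.0884 without the KO ESC library). Pmvk overlapped, at 6.39 and 9.93 FPKM against 8.91 to 18.4 (0.59, SE 0.16, limma adjusted p = 0.0428), and kept its call in 3 of 12 alternatives. Insig1, Sqle and Cyp51 were higher in every EB library than in both ESC libraries, 3 of 7 genes where 24.8% of rows were. Sqle (0.47) and Cyp51 (0.68) did not pass (limma adjusted p = 0.0715 and 0.0639), nor did Hmgcs1 (0.48), Fdft1 (0.15) and Idi1 (-0.11). Srebf2 rose by 0.49 (limma adjusted p = 0.0322), but its groups overlapped, at 34.3 and 44.7 FPKM against 43.7 to 69.5. It kept its call in 5 of 12 alternatives. Of the 14 other synthesis genes 2 rose and 1 fell. Among them Dhcr7, which makes cholesterol from 7-dehydrocholesterol, rose by 0.90, whereas Ebp, a sterol isomerase, fell by 0.87. Soat1, which esterifies cholesterol, rose by 2.25 and Stard4, a sterol carrier, by 1.11. Feeder and lineage markers moved in the same comparison. Fibroblast markers fell in 6 of 7 tested (summed FPKM 302 to 304 in ESCs, 26.2 to 242 in EBs), pluripotency markers in 4 of 7 (2104 to 2166 against 418 to 1757), and all 8 visceral endoderm markers rose (1.27 to 2.84 against 187 to 367, with Apoa4 and Afp at 0 in both ESC libraries). Of 7 neural progenitor markers 2 rose and 0 fell. The part of these markers in the values of the 7 genes was not tested.

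The 7 genes did not form 1 profile over the 10 libraries, which share their groups. Pairwise Pearson correlations of log2 values ran from -0.51 (Insig1 with Idi1) to 0.78 (Insig1 with Fdft1). Cyp51 followed the mean of the other 6 most closely (r = 0.88), Hmgcs1 next (0.76) and Idi1 least (0.02). The single-gene rows most like the mean profile of the 7, with a mean FPKM of at least 5, were Nenf (r = 0.95), Jun (0.93), Fv1, Ndufs7, Agfg2, Zc3hc1, Commd5, Fbf1, Lyrm9 and Hspa4l (0.89). Of the cholesterol, isoprenoid and fatty acid genes reported here, Dhcr7 stood highest (r = 0.84, rank 24 of 9045 rows). Scd1 of fatty acid synthesis (rank 30) and Lrp8 (111) came next, with Srebf2 at rank 165. These genes lay across the whole ranking, with Scap at rank 6708 (r = -0.27), Ebp at 8250 (-0.55) and Pdss1 at 8988 (-0.81).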

How the data were processed

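Total RNA depleted of rRNA was sequenced as paired ends from 10 libraries. Per the labels and the study's methods, the authors aligned reads to GRCm38 with STAR 2.5.2b and assembled and quantified stranded transcripts with Cufflinks 2.2.1 (Gencode annotation). The deposited values are FPKM per gene and library. Merged rows could not be split. The E8.0 columns carry another stage in their names, and the label's stage was used.

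log2(FPKM + 1) was tested with limma 3.58.1 in R 4.3.3 (two-sided, variance moderated with a trend, Benjamini-Hochberg over all rows tested, threshold 0.05), so fold changes of low genes are understated. One model held the 8 EB and embryo libraries by group, and another the 6 culture libraries with stage and genotype. The code was tested on simulated data. The study calls the EB replicates independent biological samples, the labels do not say whether replicate libraries came from separate cultures, and p-values measure the spread between these libraries, which may be technical. The genes, gene lists and markers were chosen with earlier results of these data known. Named beside the 7 were Strap and 4 regulators by role, up to 4 genes per list and comparison that passed, and the 10 rows most like the mean profile. Alternatives changed the pseudocount, filter, scaling, moderation, libraries, weights and replicate block. A few genes of the lists are counted but not reported by name here. Promoter stretches came from RefSeq (GRCm38.p6).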

Additional observations from a re-analysis of the deposited data

Results flagged for a closer look

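Fdft1 and Cyp51 lay on opposite sides in the EBs and the ESCs when Strap KO was set against WT, and 17.7% of the 15160 rows did so by the same rule (no overlap between the EB groups and the other direction in the ESC pair). The KO minus WT log2 difference of Fdft1 was 0.18 in EBs and -0.19 in ESCs. That of Cyp51 was 0.35 in EBs and -0.15 in ESCs. Neither gene passed the test in EBs (limma adjusted p = 0.399 and 0.366). The difference between the culture stages was not tested, since each ESC genotype had 1 library.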

How the results depend on the processing

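The direction of every passing gene among the 7 held under all alternatives run, but several calls did not. Of the 7 genes, 2 rose in Strap KO EBs in the model of all 8 libraries, 1 rose without a filter, and 0 rose with the 4 EB libraries alone, with separate variances, or with the 4 EB libraries and a replicate block. Leaving out a library gave 0 to 2 risen and 0 to 1 fallen genes and a median log2 change of 0.039 to 0.28. In E9.0 against E8.0, where 0 rose in the model of all 8 libraries, 4 rose with the 4 embryo libraries alone, 6 with separate variances, 2 with the replicate block, 0 with the 4 embryo libraries and the block (limma adjusted p from 0.0519 for Cyp51 to 0.226 for Idi1) and 0 with any library left out. In WT EBs against embryos, median scaling added 1 fallen gene (Sqle, limma adjusted p = 0.0375), and leaving out a library gave 0 to 1 fallen genes and a median of -0.12 to 0.29. There Hmgcs1 passed with the replicate block (limma adjusted p = 0.0368) and not with the 6 libraries compared and the block (0.0765). In EBs against ESCs, 1 gene rose without a filter, with quantile normalization or median scaling, and 0 to 2 rose with a library left out.

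Over all rows, Strap KO EBs had 326 higher and 255 lower in the model of all 8 libraries, 145 and 132 without a filter, 2 and 0 with the 4 EB libraries, 9 and 26 with separate variances, 1473 and 1142 with the replicate block, 2 and 2 with the 4 EB libraries and the block, and 15 to 808 higher and 45 to 553 lower with a library left out. E9.0 against E8.0 had 182 and 170, 120 and 114 without a filter, 94 and 113 at an FPKM filter of 5, 1576 and 1290 with the 4 embryo libraries, 1874 and 1661 with separate variances, 516 and 451 with the replicate block, and 8 to 11 and 9 to 17 with a library left out. WT EBs against embryos had 4259 and 3627, turned to 3538 and 4326 by median scaling and 3430 and 3980 by quantile normalization. EBs against ESCs had 1963 and 2236, 1221 and 2006 without a filter, and 291 to 1796 and 550 to 1994 with a library left out. The replicate block used the numbers of the titles, which the labels do not tie to a shared batch. EB library names share a prefix within each number. Those of E8.0 and E9.0 differ in prefix, so prefix and stage cannot be told apart. Deviations of same-numbered libraries correlated at 0.42 in EBs and -0.03 in embryos. Both Strap KO EB calls held with the block (Insig1 0.0154, Pmvk 0.0192, limma adjusted p).

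Median scaling turned the log2 change of Strap to -0.031 in E9.0 against E8.0 and that of Srebf2 to -0.081 in WT EBs against embryos. Leaving out a library turned the sign of genes that had not passed. In Strap KO against WT EBs the log2 change ran from -0.86 to 0.017 for Idi1 and -0.24 to 0.12 for Sqle. In E9.0 against E8.0 it ran from -0.12 to 0.13 for Strap. In WT EBs against embryos it ran from -0.39 to 0.23 for Cyp51, -0.58 to 0.29 for Idi1 and -0.084 to 0.11 for Srebf2. In EBs against ESCs it ran from -0.033 to 0.34 for Fdft1, -0.31 to 0.060 for Idi1 and -0.073 to 0.29 for Srebf1. The causes were not tested. Median scaling of the ESC pair, chosen after seeing the data, changed no sign among the 7 genes. With 2 libraries a group and unknown depth, changes within the replicate spread were not detectable.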
